A study of Mus musculus with 2 samples.

Results

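The insulin-like growth factor (IGF) system was described here through 10 genes: the ligands Igf1 and Igf2, the receptors Igf1r and Igf2r, and the binding proteins Igfbp2 to Igfbp7. They were taken by exact gene symbol from the deposited gene tables, which hold 55536 annotated genes, 22028 of them protein-coding. The material was gastrocnemius, the main calf muscle, from male B6CASTF1/J mice, the first-generation hybrid of the C57BL/6J and CAST/EiJ inbred strains, at 14 days after birth. No genotype other than the hybrid cross, and no treatment, was given, and the series holds 1 group with 2 biological replicates measured by total RNA sequencing from 300 ng of RNA each. The labels mention 3 males and give both libraries the same donor identifier, without saying whether tissue was pooled. Differences between the 2 libraries may therefore be technical. Every p-value below sets such a difference against counting error only, and measures no spread between replicates or animals. The study describes the transcriptome of this muscle at this age and holds no contrast between conditions.

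IGF-1 and IGF-2 are small secreted proteins related to insulin. Both act through the IGF-1 receptor, a tyrosine kinase that feeds the PI3K-Akt-mTOR and Ras-MAPK pathways, while the IGF-2 receptor, also known as the cation-independent mannose 6-phosphate receptor, takes up IGF-2 and delivers it to lysosomes. The binding proteins hold the ligands outside the cell, prolong their life and control their access to the receptors. In skeletal muscle the ligands support growth, myoblast differentiation and regeneration, and in mice the paternal copy of Igf2 and the maternal copy of Igf2r are the ones normally expressed.

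The libraries held 40825601 (replicate 1) and 37329025 (replicate 2) estimated read counts, of which 130061 and 111416 fell on the 10 genes, and RNAs of the ERCC spike-in set took 0.731% and 0.881% of the counts. Levels are given in TPM, a length-scaled share of all transcripts in the library that can be compared between genes. Nuclear protein-coding genes took 46.5% and 47.3% of all TPM, so values scaled to protein-coding RNA alone would be larger for every member. In the second of the 2 deposited quantifications, described below, that share was 70.7% and 72.6%. Muscle fibre markers were abundant, with a summed level of 99109 TPM in replicate 1 and 106159 TPM in replicate 2 over 6 genes, and the hepatocyte markers summed to 0.35 and 0.50 TPM over 5 genes, with Serpina1a at 0. In whole muscle, fewer cells of a type and less RNA per cell cannot be told apart.

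The members that carry the results below are shown first by the sequences that tell them apart. The 4 binding proteins whose mouse coding sequence spells a conserved amino-terminal run of 5 residues (glycine, cysteine, glycine, cysteine and cysteine), a hallmark of the IGF-binding domain, were Igfbp2, Igfbp3, Igfbp4 and Igfbp5. The 24 coding bases are printed 5′ to 3′ from the GENCODE M21 transcript sequences, with the codons of the run and of the cysteine at the eighth position in capitals.
Igfbp2: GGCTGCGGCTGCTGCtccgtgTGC
Igfbp3: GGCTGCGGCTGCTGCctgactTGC
Igfbp4: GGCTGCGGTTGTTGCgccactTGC
Igfbp5: GGCTGTGGCTGCTGCatgactTGC
These codons stand at residues 67 to 74, 68 to 75, 52 to 59 and 51 to 58, counted from the initiator methionine. The run was not found in Igfbp6 or Igfbp7. A carboxy-terminal run of cysteine, tryptophan, cysteine and valine was found in Igfbp2 to Igfbp6 and not in Igfbp7, and the integrin-binding triplet of arginine, glycine and aspartate was found only in Igfbp2 among the 6 binding proteins, at residue 281. Their reading frames encode 305, 292, 254, 271, 238 and 282 residues in the order Igfbp2 to Igfbp7, with 16 (Igfbp6) to 20 (Igfbp4) cysteines.

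Igf1 makes precursors with different carboxy-terminal extensions, and the choice turns on a 52-base exon at chr10:87915298-87915349 (GRCm38, plus strand). The coding bases after the third shared coding exon and before the stop codon are shown for a transcript without that exon and for one with it, the exon being in capitals.
Igf1-202: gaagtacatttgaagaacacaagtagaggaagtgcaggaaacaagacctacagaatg
Igf1-203: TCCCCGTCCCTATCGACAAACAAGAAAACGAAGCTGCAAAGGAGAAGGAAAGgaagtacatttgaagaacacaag
The last exon was read in another frame after the 52 bases, so that the same bases encoded a different end and the coding sequence was 477 bases in Igf1-203 against 459 bases in Igf1-202.

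Igf2 has several promoters. The 120 bases upstream of the most upstream and of the most downstream start that leads into the shared coding exons are shown, since the transcript shares below differ between them. They were taken from RefSeq's promoter table for GRCm38.p6, minus strand, with GC boxes (GGGCGG, searched on both strands) in capitals.
Upstream start, chr7:142666817-142666936: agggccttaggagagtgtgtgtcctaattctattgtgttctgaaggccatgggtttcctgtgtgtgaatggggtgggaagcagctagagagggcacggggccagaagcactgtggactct
Downstream start, chr7:142657497-142657616: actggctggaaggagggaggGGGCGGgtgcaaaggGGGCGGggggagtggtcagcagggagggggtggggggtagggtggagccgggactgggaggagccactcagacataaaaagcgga
The downstream window held 2 GC boxes and 68.3% G and C, and the upstream window held no GC box and 54.2% G and C. Neither held TATAAA on either strand. Among 32851 promoter windows of the same length, 26.5% held a GC box, 6.34% held TATAAA and the median GC content was 54.2%.

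Igf2 was by far the highest of the 10 genes. Its level was 1276.45 TPM in replicate 1 and 1169.6 TPM in replicate 2, a mean of 1223 ± 75.6 TPM (SD, n = 2), from 85108 and 70144 counts. It ranked 42 among the protein-coding genes and made up 98.4% ± 0.263 (SD, n = 2) of the summed ligand level of 1242 ± 73.4 TPM (SD, n = 2). Igf2 lies at chr7:142650766-142666816 on the minus strand.

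Igf1, the ligand best known for growth after birth and for its local role in muscle repair, lies at chr10:87858265-87937042 on the plus strand. It stood at 17.92 TPM in replicate 1 and 20.91 TPM in replicate 2, a mean of 19.4 ± 2.11 TPM (SD, n = 2), from 3118 and 3087 counts. It was the higher ligand in neither library, and the ratio of Igf2 to Igf1 was 71.2 in replicate 1 and 55.9 in replicate 2, 63.6 ± 10.8 (SD, n = 2), and 37.3 by counts per kilobase of the longest transcript. Its rank among protein-coding genes was 2613.

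The 2 receptors were far below Igf2. Igf2r, at chr17:12682406-12769664 on the minus strand, had 29.01 and 27.88 TPM in replicates 1 and 2, a mean of 28.4 ± 0.799 TPM (SD, n = 2), from 8108 and 7291 counts. Igf1r, at chr7:67952827-68233668 on the plus strand, had 6.32 and 4.48 TPM, a mean of 5.40 ± 1.30 TPM (SD, n = 2), from 1829 and 1328 counts. Igf2r exceeded Igf1r in both libraries, with a ratio of 5.41 ± 1.15 (SD, n = 2), and gave 84.1% ± 2.86 (SD, n = 2) of the receptor transcripts. The insulin receptor Insr, which shares its signalling partners with Igf1r and can pair with it in hybrid receptors, stood at 18.24 and 18.16 TPM, 3.47 ± 0.826 times (SD, n = 2) the level of Igf1r.

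The 6 binding proteins summed to 346 ± 13.3 TPM (SD, n = 2), so that the ligands exceeded them 3.59 ± 0.0742 times (SD, n = 2). That is a ratio of binding proteins to ligands of 0.278, which was 0.558 by counts per kilobase of the longest transcript. Igfbp7, also known as angiomodulin and the member with low affinity for IGFs, was the highest at 144.83 and 128.43 TPM, a mean of 137 ± 11.6 TPM (SD, n = 2), from 4719 and 3914 counts at chr5:77349240-77408041 (minus strand). Igfbp5, which binds extracellular matrix and is the binding protein best known from differentiating muscle cells, followed at 114.5 and 117.72 TPM, a mean of 116 ± 2.28 TPM (SD, n = 2), at chr1:72857932-72874884 (minus strand). Together they made up 73.1% ± 0.118 (SD, n = 2) of the binding protein level.

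Igfbp4, a substrate of the protease pappalysin, stood at 34.72 and 35.71 TPM, a mean of 35.2 ± 0.700 TPM (SD, n = 2), from 2282 and 2189 counts at chr11:99041244-99054392 (plus strand). Igfbp6, which prefers IGF-2 over IGF-1, stood at 29.59 and 28.17 TPM, a mean of 28.9 ± 1.00 TPM (SD, n = 2), from 960 and 855 counts at chr15:102144362-102149511 (plus strand). Igfbp3, the main carrier of IGFs in adult serum, stood at 30.46 and 25.81 TPM, a mean of 28.1 ± 3.29 TPM (SD, n = 2), from 2255 and 1788 counts at chr11:7206086-7213923 (minus strand). The 3 genes were close to each other. Igfbp5 exceeded Igfbp4 3.30 times in both libraries, and 6.05 times by counts per kilobase of the longest transcript, while Igfbp7 exceeded Igfbp3 4.87 ± 0.156 times (SD, n = 2).

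Igfbp2 was the lowest member, at 1.11 TPM in replicate 1 and 0.55 TPM in replicate 2, a mean of 0.830 ± 0.396 TPM (SD, n = 2), from only 43 and 20 counts at chr1:72824503-72852474 (plus strand). Its neighbour Igfbp5, which lies 5457 bases from it at its nearest annotated base, on the opposite strand of chromosome 1, gave 21639 and 20800 counts. Igfbp3 has a neighbour of the same family too: Igfbp1, the liver-type binding protein 3539 bases away on chromosome 11, had 0 counts in both libraries, where 3 counts would be the upper limit that a count of 0 allows, for counting error only.

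From highest to lowest the order of mean levels was Igf2, Igfbp7, Igfbp5, Igfbp4, Igfbp6, Igf2r, Igfbp3, Igf1, Igf1r and Igfbp2. Of the 9 neighbouring pairs in this order, 7 had values that did not overlap between the genes. The values of Igfbp6 and Igf2r overlapped, as did those of Igf2r and Igfbp3, so the order within that trio was not resolved. With 2 libraries an exact two-sided sign-flip test cannot go below p = 0.5, and these orders are therefore descriptions.

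**Figure D1:**
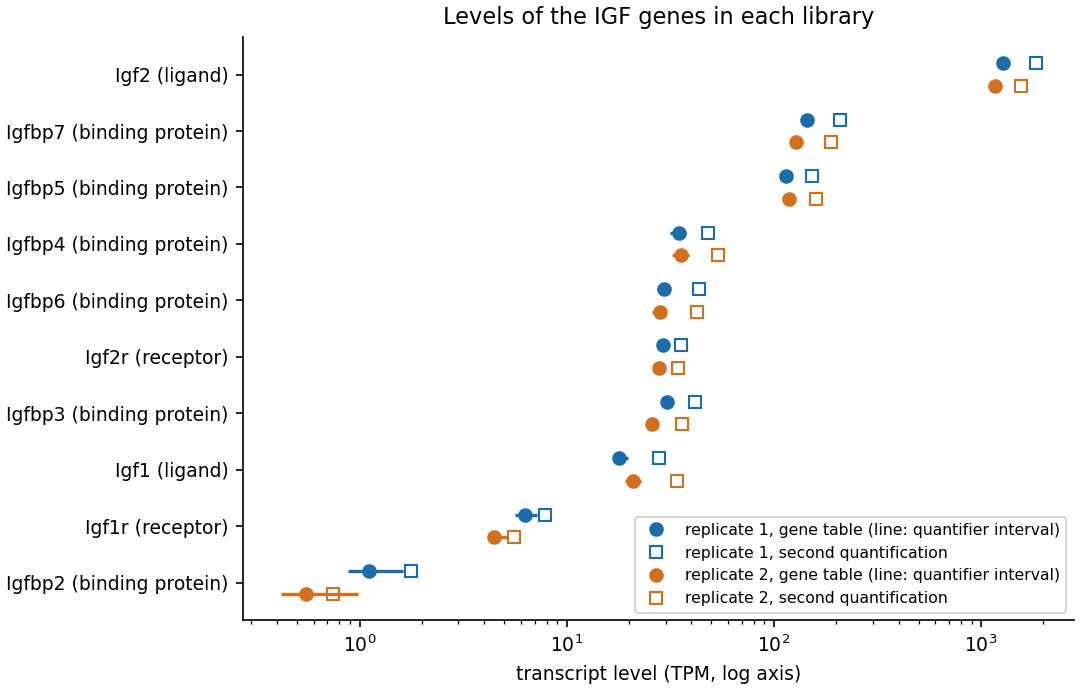
Transcript level (TPM, log axis) of the 10 IGF genes, ordered by mean level. Filled circles are the gene table's values for each replicate with the quantifier's interval as a line, and open squares are the second quantification, which lies above the first for every gene; Igf2 stands alone above 1000 TPM and Igfbp2 alone near 1 TPM.

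The deposited files quantify the transcripts in 2 ways (86 genes have no entry in the second), first from alignments to the transcriptome and then directly from the reads. Over genes averaging 1 TPM or more, TPM in the second was a median of 1.35 times that in the first. In it Igf2 reached 1843 TPM in replicate 1 and 1559 TPM in replicate 2 and Igf1 30.9 ± 4.37 TPM (SD, n = 2), while the summed binding proteins reached 488 ± 10.4 TPM (SD, n = 2).

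Igf1 was carried mostly by 1 transcript, Igf1-202, which begins at leader exon 1, skips the 52-base exon and ends in a last exon of 6368 bases. It took 69.1% of Igf1 TPM and 92.8% of Igf1 counts, as means of the 2 libraries in the first quantification. The transcripts with the 52-base exon took 25.9% and 31.6% of Igf1 TPM in replicates 1 and 2, and 17.5% and 20.3% in the second quantification. By counts, which weigh long transcripts more, they took 7.60% and 6.23%, and 1.44% and 1.96% in the second quantification.

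The transcripts behind that share were not the same in the 2 quantifications. Igf1-203 had 18.2% of Igf1 TPM in the first and 0 in the second. Igf1-206, a short transcript of 651 bases that begins at leader exon 2, had 9.66% and 16.0%, its first-quantification share coming entirely from replicate 2. Igf1-205, which begins in a separate exon upstream, carries leader 2 as its second exon and lacks the 52-base exon. It had 1.86% and 22.4%.

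The alternative leader exons of Igf1 give different amino-terminal ends to the precursor. Transcripts with leader 2 took 3.01% of Igf1 TPM in replicate 1 and 22.5% in replicate 2, 12.7% ± 13.8 (SD, n = 2), and 37.0% and 46.5% in the second quantification. By counts they took 0.68% and 2.92%, and 3.59% and 5.18% in the second quantification. Leader 1 was the more used by counts in both libraries, and the leader 2 share by TPM was not resolved by these data.

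The 5 Igf2 transcripts with a complete coding sequence share 3 coding exons and begin at 4 different starts. The most downstream start before those exons (Igf2-201 and Igf2-202) took 27.7% and 27.4% of Igf2 TPM in replicates 1 and 2, 27.5% ± 0.179 (SD, n = 2), and 40.7% ± 0.974 (SD, n = 2) of Igf2 counts. In the second quantification it took 24.6% of TPM and 39.5% of counts. It was the start with the largest share of counts in both quantifications, ahead of the next start upstream, that of Igf2-205, with 34.7% and 30.2% of counts. Its window is the one printed above with 2 GC boxes. The RefSeq start nearest Igf2-205, 685 bases from its first base, had 1 GC box and 72.5% G and C in its window. That nearest Igf2-204, 34 bases from its first base, had no GC box and 55.0% G and C. A link between these windows and the shares was not tested.

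The most upstream start (Igf2-203), whose window is the other one printed above, took 13.8% and 9.85% of Igf2 TPM in replicates 1 and 2 but only 3.65% and 2.71% of counts. In the second quantification it took 4.39% of TPM in replicate 1 and 0.0148% in replicate 2. Igf2-207, which begins downstream of it, had 18.2% of TPM in the first quantification and 0 in the second. The start of Igf2-204 and Igf2-206 had 5.37% of TPM and 9.80% of counts in the first, and 11.8% of TPM and 22.9% of counts in the second.

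Transcripts with the complete Igf2 coding sequence took 59.8% ± 4.12 (SD, n = 2) of Igf2 TPM and 88.3% ± 0.966 (SD, n = 2) of counts. In the second quantification they took 51.1% of TPM and 93.0% of counts. Much of the rest was in short transcript models inside the gene. Igf2-208, a non-coding model of 958 bases inside the span of the last exon, had 21.6% ± 0.299 (SD, n = 2) of TPM and 9.10% of counts, and 12.4% of TPM in the second quantification. Igf2-209, of 462 bases in the coding part, had 0.0951% of TPM in the first quantification and 36.4% in the second, the largest disagreement between the quantifications among Igf2 transcripts.

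**Figure D2:**
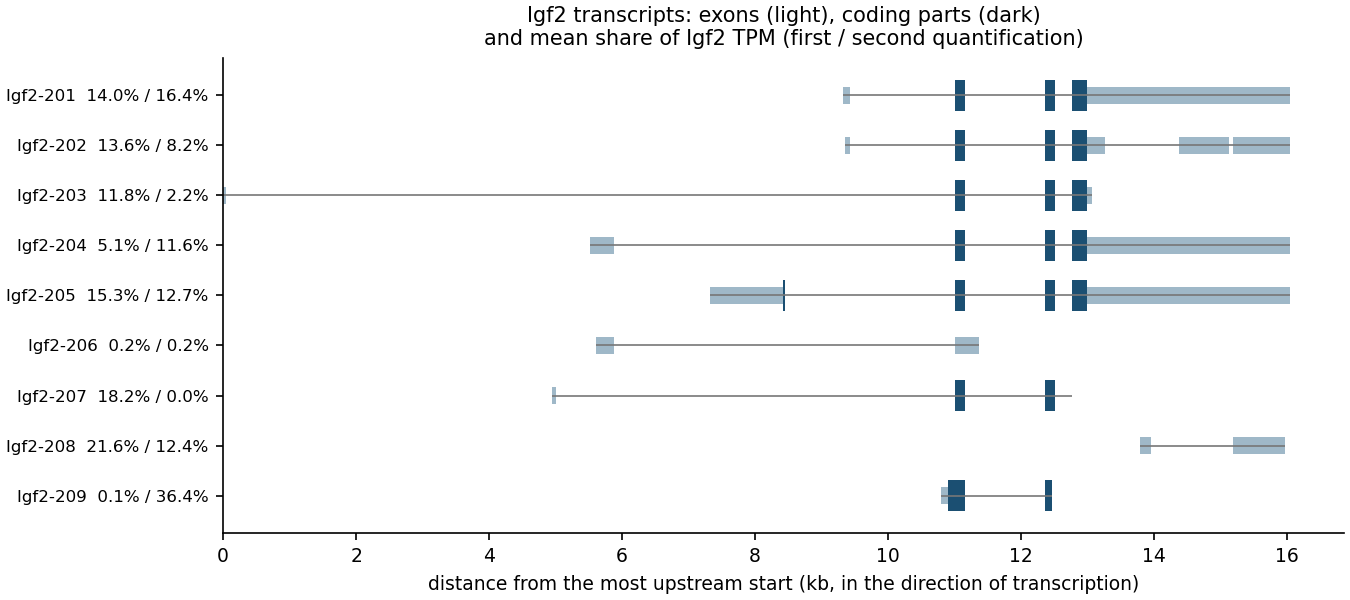
The 9 annotated Igf2 transcripts drawn to scale by distance from the most upstream start (kb, in the direction of transcription), with exons light, coding parts dark and the mean share of Igf2 TPM in the first and the second quantification beside each name. The transcripts with the complete coding sequence share 3 coding exons between 11 and 13 kb, and Igf2-207 and Igf2-209 differ most between the quantifications.

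**Figure D3:**
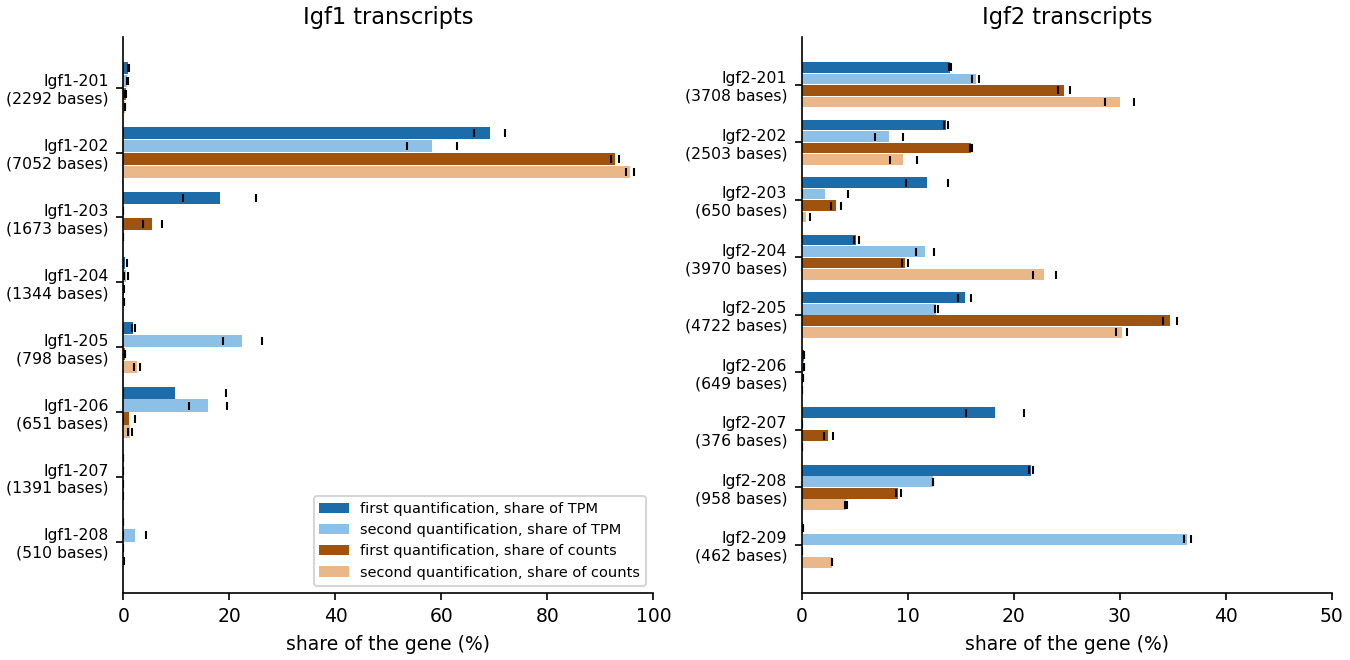
Share (%) of each annotated Igf1 and Igf2 transcript in its gene, as a share of TPM (blue) or of counts (brown), for the first (dark) and the second (light) quantification; bars are means of the 2 libraries and ticks are the libraries. Igf1-202 leads by every measure, whereas the largest Igf2 transcript depends on the measure and on the quantification.

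Among the other members, Igf2r-201 took 99.2% of Igf2r TPM and Igf1r-201 80.5% of Igf1r TPM. Igfbp4 was the exception among the binding proteins: its coding transcript Igfbp4-201 took 45.4% of TPM but 82.7% of counts. Igfbp4-203, a short processed transcript named here after its values were seen, had most of the rest in the first quantification and 0.000805 TPM in replicate 1 in the second, where another processed transcript, Igfbp4-202, took 49.1% and Igfbp4-201 40.2%. The lead transcripts of Igfbp3, Igfbp5, Igfbp6 and Igfbp7 each held 98.6% or more of their gene's TPM in the first quantification.

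Genes that overlap a member bear on how the reads were shared out, and neighbouring genes are given beside them. H19, the maternally expressed non-coding RNA that shares control regions with Igf2 and lies 72622 bases downstream of it, stood at 4293.4 and 3849.84 TPM, above Igf2 in both libraries. Ins2, 11839 bases upstream of Igf2, was at 0 counts. Gm49394, a protein-coding model that overlaps Igf2 on the same strand, had 14.35 and 19.23 estimated counts, and the antisense Igf2os had 73 and 63. Airn, the antisense RNA that silences the paternal Igf2r and overlaps the Igf2r gene in part, had 157 and 137 counts over its whole length. Igfbp7 overlaps Polr2b, a protein-coding gene on the opposite strand that ends at chr5:77349324, just inside the Igfbp7 span. Polr2b had 1288 and 1150 counts over its whole length. The library preparation kept strand information, but whether the counting used it is not stated. Values of genes that overlap a gene on the opposite strand are therefore less certain.

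The 2 libraries were then compared as a check of how far the levels repeat. An exact two-sided binomial test on the rounded counts, given library sizes scaled by the trimmed mean of M values (TMM), with Benjamini-Hochberg adjustment over 17245 genes with at least 10 counts, covers counting error in these libraries and not a condition. All 10 members passed the minimum of 10 counts. Of them 6 differed at an adjusted p under 0.05, 4 higher in replicate 1 and 2 higher in replicate 2. Over all tested genes the background was 21.3% called, 10.7% as higher in replicate 1 and 10.6% as higher in replicate 2. Among genes with at least 1000 counts, which 9 members reached and which included all 6 called, 38.3% were called. None of the 6 called members was over 1.5-fold, whereas 4.8% of all tested genes were called and over 1.5-fold.

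The called differences were small. Igf2 was higher in replicate 1 by 0.13 on the log2 scale of scaled counts (log2 difference -0.13, exact binomial adjusted p = 3.46e-67). Igf1r was higher in replicate 1 as well (log2 difference -0.31, exact binomial adjusted p = 3.57e-08), a 1.24-fold difference, and 18.0% of genes averaging 1 TPM or more differed by more. Igfbp3 (log2 difference -0.19, exact binomial adjusted p = 0.000527) and Igfbp7 (log2 difference -0.12, exact binomial adjusted p = 0.0011) were also higher in replicate 1, but Igfbp7 did not pass in the second quantification (log2 difference -0.07, exact binomial adjusted p = 0.101).

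Igf1 (log2 difference 0.14, exact binomial adjusted p = 0.00195) and Igfbp5 (log2 difference 0.09, exact binomial adjusted p = 1.02e-09) were higher in replicate 2. Igf1 differed more in TPM than in counts, and the length the gene table gives for it was 5531 bases in replicate 1 and 5025 bases in replicate 2. Igf2r (log2 difference -0.00, exact binomial adjusted p = 0.96), Igfbp6 (-0.02, exact binomial adjusted p = 0.927), Igfbp4 (0.09, exact binomial adjusted p = 0.133) and Igfbp2 (-0.94, exact binomial adjusted p = 0.0683) did not pass. For Igfbp2 the 43 and 20 counts limit what could be detected. In an added check, chosen after seeing the data, the quantifier's TPM intervals of the libraries lay apart for 4 members, Igf2, Igf1r, Igfbp3 and Igfbp7.

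The median absolute log2 difference was 0.12 over the members and 0.13 over the 12156 genes averaging 1 TPM or more. The median signed difference was -0.07 over the members and -0.01 over all tested genes. When the libraries were scaled to the ERCC spike-in RNA instead, the median over genes averaging 1 TPM or more moved by -0.29 and all 10 members were lower in replicate 2, Igf1 and Igfbp5 included. The directions given here are therefore relative to the bulk of genes.

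**Figure D4:**
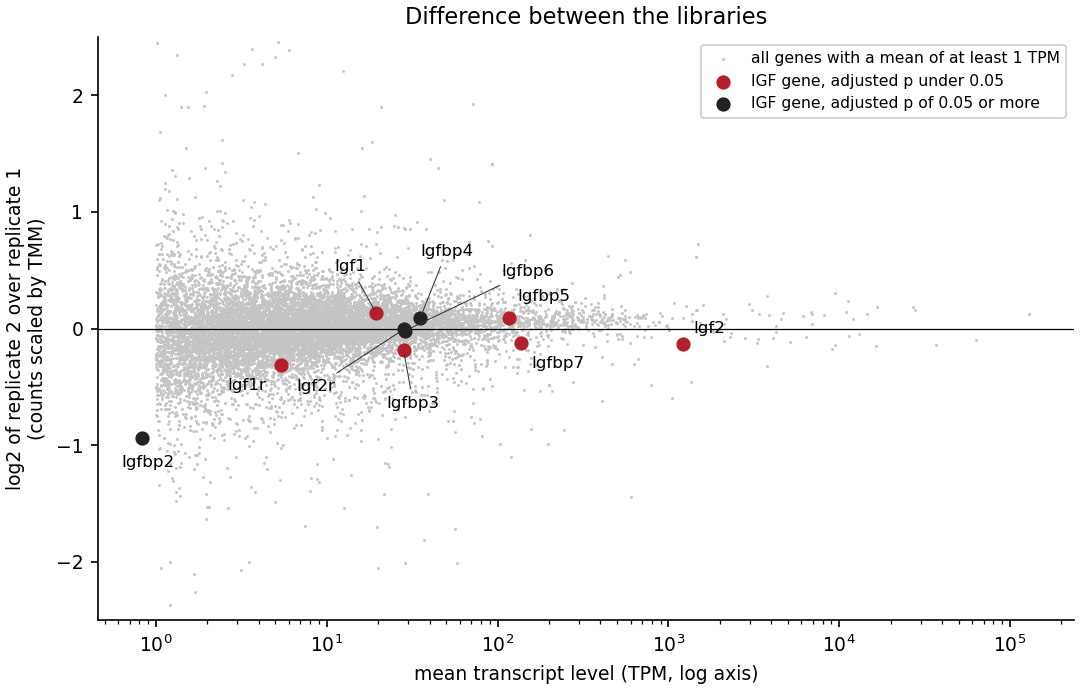
Difference between the libraries (log2 of replicate 2 over replicate 1, counts scaled by TMM) against mean level (TPM, log axis), for 12078 tested genes averaging 1 TPM or more (grey; 11 lie outside the plotted range) and the 10 IGF genes (red where the adjusted p was under 0.05, black otherwise). After Igfbp2, Igf1r lies farthest from 0, at -0.31; Igf1, Igfbp4 and Igfbp5, above 0 here, lie below 0 with ERCC scaling.

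Markers of other cell types differed between the libraries alongside the members. Their levels are summed TPM in replicates 1 and 2, and the sums without a gene and the directions of list genes with ERCC scaling were added after seeing the data. Calls in all marker lists stand beside 21.3% called over all tested genes and 38.3% among genes with at least 1000 counts. Endothelial markers summed to 208 and 169, with 4 of 7 called, all higher in replicate 1. Fibro-adipogenic progenitor markers summed to 2660 and 2170, with 5 of 9 called, 4 of them higher in replicate 1. Col1a1 alone gave 1597.29 and 1117.88 TPM, the other 8 of these markers summed to 1063 and 1052, and the list's median log2 difference was -0.07. Tendon markers summed to 211 and 141, with all 6 called, 5 of them higher in replicate 1. All 6 muscle fibre markers were called higher in replicate 2, although all 6 turned to higher in replicate 1 with ERCC scaling. Higher in replicate 2 under either scaling were all 5 erythroid markers, with sums of 1392 and 1958, and all 4 adipocyte markers, with sums of 0.94 and 7.51. Igf2, Igf1r, Igfbp3 and Igfbp7 shared the direction of the endothelial, tendon, fibro-adipogenic progenitor and macrophage sums. Igf1 and Igfbp5 shared that of the muscle fibre, erythroid, adipocyte, Schwann, satellite and pericyte sums. Without Myog the satellite sums were 23.70 and 23.38 TPM, and without Des the pericyte sums were 389.61 and 381.55 TPM. Both lists thus turned to higher in replicate 1 when their most abundant gene was left out. The other lists named here kept their direction without theirs. Each direction was thus common to several lists. The part of any of these in the member differences was not tested.

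The remaining marker sums were close between the libraries or rested on few calls. Pericyte and smooth muscle markers summed to 1091 and 1105 TPM with 3 of 7 called. Satellite and myogenic markers summed to 54.3 and 58.9 TPM with 3 of 6 called. Macrophage markers summed to 38.7 and 33.7 TPM with 2 of 6 called, and Schwann cell markers to 80.6 and 117 TPM with 2 of 6 called.

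Downstream of the receptors, 30 of 31 listed signalling genes were tested and 12 (40%) were called, with a median log2 difference of -0.01. Of the called genes 8 were higher in replicate 1 and 4 higher in replicate 2, and 2 of the latter, Pdpk1 and Sos1, turned with ERCC scaling. Over all tested genes 21.3% were called, and 38.3% of those with at least 1000 counts, so the 40% was close to the latter share. The same 2 shares are the background for the lists below. Irs4, an insulin receptor substrate, was at 0 counts in both libraries. The 4 highest were Grb10, an imprinted adaptor that restrains the insulin and IGF-1 receptors, at 101.8 TPM, Akt2 at 53.2 TPM, Eif4ebp1, a translation repressor that mTOR inactivates, at 39.2 TPM, and Akt1 at 35.7 TPM.

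The signalling genes that passed the test with over 1.5-fold were Foxo1, Foxo3 and Grb14. Foxo1, a transcription factor that Akt keeps out of the nucleus and that drives atrophy genes in muscle, stood at 14.82 and 7.53 TPM in replicates 1 and 2. Foxo3, of the same family, had 20.35 and 11.24 TPM. Grb14, an inhibitory adaptor of the insulin receptor, had 5.1 and 8.4 TPM. These genes were picked for a difference over 1.5-fold, which no called member reached, so that they differed more follows from the selection. Igfbp2, with few counts and not called, differed 1.94-fold.

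In the growth hormone axis, the hormonal input to Igf1, all 8 listed genes were tested and 4 were called, all higher in replicate 2 (Ghr turned with ERCC scaling), with a median log2 difference of 0.12. Stat5b stood at 48.4 TPM, the growth hormone receptor Ghr at 35.9 TPM and Stat5a at 8.19 TPM. Cish, a feedback inhibitor induced by STAT5, stood at 10.75 and 26.25 TPM in replicates 1 and 2, a 3.03-fold difference. The related inhibitors Socs1, with 0.18 and 0.50 TPM, and Socs3, with 1.30 and 2.12 TPM, were also called over 1.5-fold. Socs2, also listed, was lower in replicate 2 without being called (log2 difference -0.22). Stat5b (0.006) and Jak2 (-0.004) hardly differed. Igf1 was higher in replicate 2, by 0.14 on the log2 scale, and turned with ERCC scaling. A link between Igf1 and these genes was not tested.

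Among carriers and proteases of the binding proteins, 8 of 10 were tested and 3 were called, all higher in replicate 1, with a median log2 difference of -0.05. The serine proteases Htra1 and Htra3 stood at 27.4 and 21.9 TPM. Stc2, a stanniocalcin that inhibits pappalysins, had 4.45 and 2.65 TPM in replicates 1 and 2, and Pappa, the pappalysin that cleaves Igfbp4, had 0.88 and 0.56 TPM. The metalloprotease Adam12 stood at 2.10 TPM.

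Of the genes with an IGFBP-type domain outside the family, 7 of 9 were tested and 4 were called, 2 in each direction, with a median log2 difference of -0.09. The matricellular genes Ccn2, Ccn1, Ccn3 and Ccn4 were the highest, at 21.3, 13.9, 7.10 and 3.03 TPM. Esm1, a proteoglycan of endothelial tip cells, had 0.73 and 1.22 TPM in replicates 1 and 2 and was called over 1.5-fold.

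All 4 genes of the mannose phosphate sorting route, which Igf2r serves, were tested and 1 was called, with a median log2 difference of 0.14. The other mannose 6-phosphate receptor, M6pr, stood at 10.4 TPM, and the enzyme subunits and the uncovering enzyme that make its tag, Gnptg, Gnptab and Nagpa, at 5.93, 4.90 and 2.65 TPM. Of 17 genes near the imprinted members or known to act on Igf2, 9 were tested and 2 were called, both higher in replicate 1, with a median log2 difference of -0.06. H19 led, followed by Ctcf, which binds the control region between H19 and Igf2, at 15.4 TPM, Plagl1 at 13.1 TPM and Airn at 5.26 and 4.74 TPM in replicates 1 and 2.

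**Figure D5:**
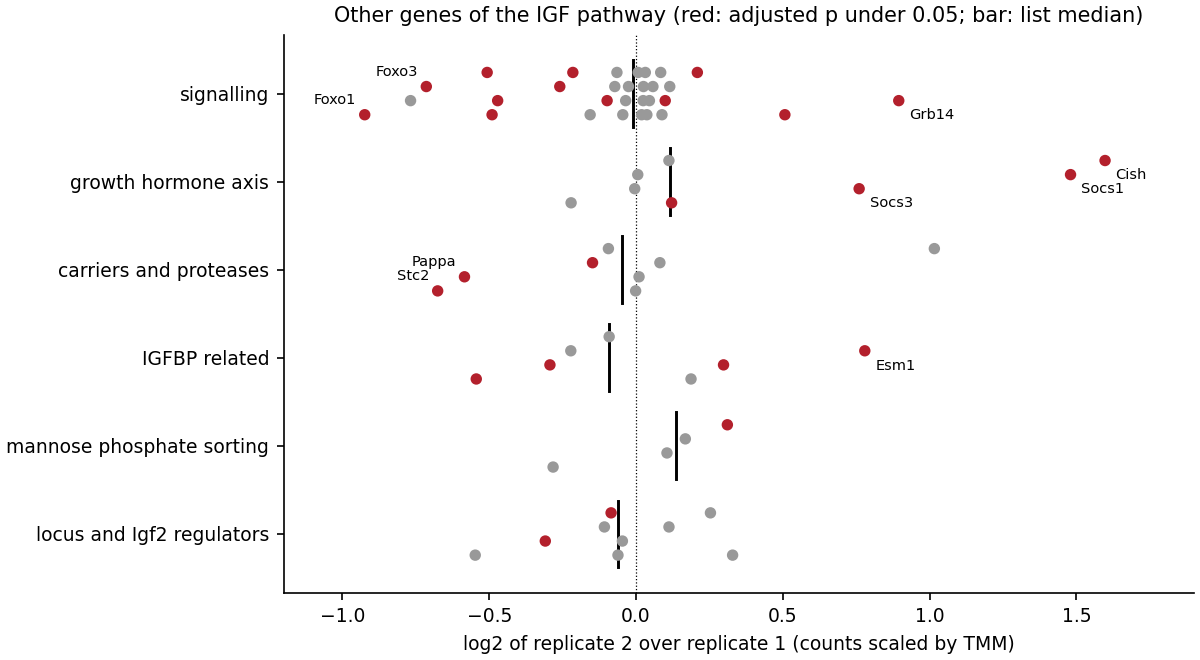
Difference between the libraries (log2 of replicate 2 over replicate 1, counts scaled by TMM) for the tested genes of 6 pathway lists; red points had an adjusted p under 0.05, the bar is the list's median, and genes called with over 1.5-fold are named. Foxo1 and Foxo3 lie to the left and Cish, Socs1, Socs3 and Grb14 to the right.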

How the data were processed

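Total RNA of 2 libraries was quantified by the authors against GRCm38 with GENCODE M21, per the deposited notes. The aligner and the quantifiers are not named in the labels or file headers. Whether reads from CAST/EiJ alleles aligned less well to this reference was not tested. The deposited gene and transcript tables hold expected counts and TPM estimated by the authors, each transcript's percent of its gene, and interval bounds for TPM (treated as a signal), per the file headers. The deposited second transcript table holds estimated counts and TPM and was summed here over each gene. Numeric-identifier entries (26248) and 97 added RNAs were left out of gene tests, and 86 genes had no entry in the second table. Here expected counts were rounded and compared with an exact binomial test under TMM factors from edgeR 4.0.16 (R 4.3.3), with scipy 1.17.1 for the test and Benjamini-Hochberg adjustment over 17245 genes with at least 10 counts. DESeq2 1.42.0 size factors, total counts, ERCC totals, other count minimums, the second table and each library alone were alternatives. The test was checked on simulated counts with known changes and counting error only. That is the error the test assumes, so spread between libraries was not covered by the check. Levels, ratios and shares are means with SD over 2 libraries. Counting intervals cover counting error only. Named genes were all members, Igf1 and Igf2 transcripts of at least 10% and protein-coding transcripts of other members of at least 20%, and, per pathway list, the 4 highest genes plus those called with over 1.5-fold. The members and lists were chosen with earlier results of these data known.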

Additional observations from a re-analysis of the deposited data

How the results depend on the processing

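Depth limited Igfbp2 most. No paired analysis was possible because the series holds 1 group. In the second quantification the summed level was 1732 TPM for ligands, 41.7 for receptors and 488 for binding proteins, and within nuclear protein-coding genes 2651, 72.2 and 738. In either library alone the sums were 1191 to 1294, 32.4 to 35.3 and 336 to 355 TPM. The ratio of Igf2 to Igf1 was 37.3 by counts per kilobase of the longest transcript and 55.9 to 71.2 in single libraries. By counts per kilobase Igf1r over Insr was 0.376, Igfbp5 over Igfbp4 6.05, Igfbp7 over Igfbp3 4.32 and binding proteins over ligands 0.558. The second quantification gave 3.06 for Igfbp5 over Igfbp4 and 5.14 for Igfbp7 over Igfbp3. In single libraries Igf2r over Igf1r was 4.59 to 6.22, Igf1r over Insr 0.247 to 0.346, Igfbp7 over Igfbp3 4.75 to 4.98 and binding proteins over ligands 0.274 to 0.283. The Igf1 leader 2 share was 3.01% to 22.5% in single libraries and 41.8% in the second quantification. The 52-base exon share was 25.9% to 31.6% in single libraries, 18.9% in the second quantification and 6.91% by counts. For Igf2, the second quantification, counts and protein-coding transcripts alone gave 24.6%, 40.7% and 35.2% for the most downstream start, 12.7%, 34.7% and 19.6% for the start of Igf2-205, and 51.1%, 88.3% and 76.5% for complete coding sequences. Single libraries gave 27.4% to 27.7%, 14.8% to 15.9% and 56.9% to 62.7%. Igf2-208 took 12.4% in the second quantification, 9.10% by counts and 21.4% to 21.8% in single libraries. Of the 6 differing members, 0 were over 1.5-fold with either pseudocount. With ERCC totals all 10 differed, higher in replicate 1, as were 96.7% of all called genes against 50.3% with TMM, and the log2 differences of Igf1, Igfbp4 and Igfbp5 turned to -0.16, -0.20 and -0.20. In the second quantification Igf2r and Igfbp6 turned to 0.0217 and 0.0336 without passing the test, Igfbp7 no longer passed (exact binomial adjusted p = 0.101) and Igfbp2 passed (0.0112). The cause of these shifts was not tested. DESeq2 size factors, total counts and other count minimums left all 10 calls and directions as they were.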
